A study of Homo sapiens with 9 samples.

Results

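NT5E, XDH and 8 further genes of purine breakdown, purine salvage and adenosine signalling were followed in lines of the human pancreatic cancer cell line PANC-1. The 10 genes are NT5E, XDH, ADA, ADK, PNP, HPRT1, APRT, NT5C2, AMPD2 and ADORA2B. They are 10 of the 16750 genes in the deposited expression table, and each matched exactly 1 row by its symbol. They were chosen by their role in the pathway and by their CPM values in these same 9 libraries, so their levels in the 3 groups are given as a description and carry no test.

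PANC-1 was derived from a ductal carcinoma of the pancreas. All groups had been transduced with a lentivirus and selected and kept in puromycin. The SLC22A10_OE group carried pLV-SLC22A10, the SLC22A15_OE group carried pLV-SLC22A15 and the vector group carried the empty plasmid pLV-EV, with 3 libraries in each group. Both genes belong to the SLC22 family of organic ion carriers, and these RNA data do not measure transport by either. Total RNA was depleted of ribosomal RNA and made into strand-specific libraries. The labels call the lines clones, and they do not say how many clones stand behind a group or whether its libraries came from separate cultures, so errors and p-values here measure the spread between libraries, which may be technical.

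Library totals lay between 28.4 and 42.9 M reads, and 1 CPM (count per M reads, adjusted by the authors' library scaling) stood for 27.8 to 43.4 reads. SLC22A10 was at 80.5 to 91.4 CPM in SLC22A10_OE libraries, against 0 CPM in SLC22A15_OE libraries and 0 to 0.0281 CPM in vector libraries. SLC22A15 was at 73.3 to 78.3 CPM in SLC22A15_OE libraries, 3.44 to 4.12 CPM in SLC22A10_OE libraries and 5.46 to 6.52 CPM in vector libraries. One library of each group stood apart by a low share of mitochondrial ribosomal RNA, SLC22A10_OE library 3 at 0.0151% of reads, SLC22A15_OE library 1 at 0.0111% and vector library 1 at 0.00958%, where the other 6 lay between 0.0454% and 0.0843%. Of 9 pancreatic duct markers, 6 were in the table, and their summed level was 557 to 618 CPM in SLC22A10_OE libraries, 295 to 330 CPM in SLC22A15_OE libraries and 440 to 479 CPM in vector libraries. KRT8, KRT18, KRT19 and SOX9 carried nearly all of it, while the mean of the duct keratin KRT7 was between 0.183 and 0.449 CPM in every group. Markers of other cell types were low against those of duct cells, and the lists of fibroblasts (3 of 8 in the table), endothelial cells (2 of 8) and leukocytes (4 of 10) had their highest sums in SLC22A10_OE libraries. Their summed levels were 5.74 to 7.12, 7.20 to 8.50 and 34.1 to 36.4 CPM in SLC22A10_OE libraries, 1.64 to 2.00, 4.73 to 5.49 and 23.2 to 24.2 CPM in SLC22A15_OE libraries, and 2.22 to 2.78, 2.84 to 4.0 and 19.0 to 22.3 CPM in vector libraries. The genes of these 3 lists did not move one way. Higher were COL1A1, at 5.01 CPM in SLC22A10_OE against 0.536 CPM in vector, CDH5 at 6.86 against 1.11 CPM and CD14 at 8.14 against 0.612 CPM. CD68 was at 24.1 against 17.0 CPM, ITGAM at 2.00 against 1.35 CPM and ACTA2 at 1.46 against 1.36 CPM. Lower were THY1 at 0.0966 against 0.561 CPM, CLDN5 at 0.796 against 2.31 CPM and CSF1R at 0.851 against 1.44 CPM. The acinar list (2 of 8 in the table) had its lowest sums in SLC22A10_OE, at 3.18 to 4.03 CPM, against 4.68 to 5.91 CPM in SLC22A15_OE and 4.98 to 5.51 CPM in vector. The hepatocyte list (2 of 6) was at 0.612 to 1.12 CPM in SLC22A10_OE, 0.599 to 0.762 CPM in SLC22A15_OE and 0.504 to 0.861 CPM in vector. CD68, which many cultured cells also express, made up most of the leukocyte sum, no listed marker in the table had a group mean of 0, and the part of these cell types in the values that follow was not tested. In such bulk libraries, fewer cells with a transcript and less transcript per cell cannot be told apart.

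Purines released from cells as ATP are broken down outside the cell in steps to AMP and then to adenosine, and NT5E, also known as CD73, makes that last cut. Adenosine acts on receptors such as ADORA2B, or enters the cell, where ADK returns it to AMP and ADA converts it to inosine. Inosine and guanosine lose their sugar through PNP, and the free bases hypoxanthine and guanine can be rebuilt into nucleotides by HPRT1. APRT salvages adenine. Hypoxanthine can instead be oxidised by XDH through xanthine to urate, the end product of human purine breakdown. NT5E on tumour cells is widely known as a source of immunosuppressive adenosine, and pancreatic ductal tumours are among those that carry it.

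NT5E, XDH and PNP had the lowest values relative to vector among the 10 genes in both overexpressing lines, and their promoters are shown for that reason. They are the 250 bases before the start site in RefSeq on GRCh38.p14, on the strand of the gene, and capitals mark matches on either strand to 4 short motifs. These are GGGCGG, the letters of a GC box bound by Sp1-like factors, then TGACG, part of the site of CREB-like factors, as well as ACGTG, part of an E-box, and lastly CATTCC, the core of the TEAD site. The NT5E stretch is chr6:85449833-85450082 on the plus strand, that of XDH is chr2:31414743-31414992 on the minus strand, and that of PNP is chr14:20469156-20469405 on the plus strand.
NT5E: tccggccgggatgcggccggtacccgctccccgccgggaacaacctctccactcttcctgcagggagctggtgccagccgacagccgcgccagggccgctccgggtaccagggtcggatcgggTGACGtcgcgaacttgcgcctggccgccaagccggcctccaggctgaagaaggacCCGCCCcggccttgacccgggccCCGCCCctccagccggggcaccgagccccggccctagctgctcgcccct
XDH: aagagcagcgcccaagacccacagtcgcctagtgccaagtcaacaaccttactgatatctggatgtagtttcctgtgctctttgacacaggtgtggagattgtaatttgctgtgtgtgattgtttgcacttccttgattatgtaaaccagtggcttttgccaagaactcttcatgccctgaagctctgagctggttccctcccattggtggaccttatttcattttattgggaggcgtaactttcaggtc
PNP: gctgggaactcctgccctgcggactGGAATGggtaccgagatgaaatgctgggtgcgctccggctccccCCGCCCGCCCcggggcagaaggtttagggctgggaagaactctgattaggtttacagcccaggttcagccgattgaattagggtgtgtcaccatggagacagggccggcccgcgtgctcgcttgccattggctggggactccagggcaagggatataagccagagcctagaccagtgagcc
Over these bases and the 50 after the start, the NT5E promoter held 2 matches to GGGCGG and 1 to TGACG. The PNP promoter held 2 matches to GGGCGG, which overlap each other, and 1 to CATTCC. None of the 4 motifs was found in the XDH window. Of 35116 RefSeq promoters of the same length, 44.95% held GGGCGG, 24.6% held TGACG, 21.4% held ACGTG and 14.03% held CATTCC, and TGACG can share letters with an ACGTG that follows it. The base composition of the promoters differed, with 75.0% G and C for NT5E, 61.7% for PNP and 47.0% for XDH, where the median promoter had 58.7%. The NT5E promoter was richer in G and C than 90.4% of the promoters, and that of XDH was richer than 24.6%. All 10 genes had an entry, with 16 promoters between them. For NT5E and PNP, the gene annotation used below also has a transcript start ahead of the RefSeq one.

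NT5E is encoded at chr6:85449584-85495791 on the plus strand (GENCODE release 29, GRCh38, as for all gene positions here). It was at 45.4, 44.4 and 41.0 CPM in the SLC22A10_OE libraries, 118, 123 and 125 CPM in the SLC22A15_OE libraries and 269, 298 and 284 CPM in the vector libraries. The 3 groups were fully apart, with SLC22A10_OE lowest, SLC22A15_OE between and vector highest. The means were 43.6 ± 2.27, 122 ± 3.66 and 284 ± 14.2 CPM for SLC22A10_OE, SLC22A15_OE and vector (SD, n = 3 each). That was 6.51-fold lower in SLC22A10_OE and 2.32-fold lower in SLC22A15_OE than in vector. On the log2(CPM + 1) scale the difference from vector was -2.68 in SLC22A10_OE and -1.21 in SLC22A15_OE, and SLC22A15_OE exceeded SLC22A10_OE by 1.47, each with a standard error of 0.05. On that scale, among the 14554 genes tested, NT5E had the 4th lowest difference from vector in SLC22A10_OE and the 48th lowest in SLC22A15_OE. The authors' deposited tables list log2 fold changes of -2.70 and -1.22 for these comparisons.

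**Figure D1:**
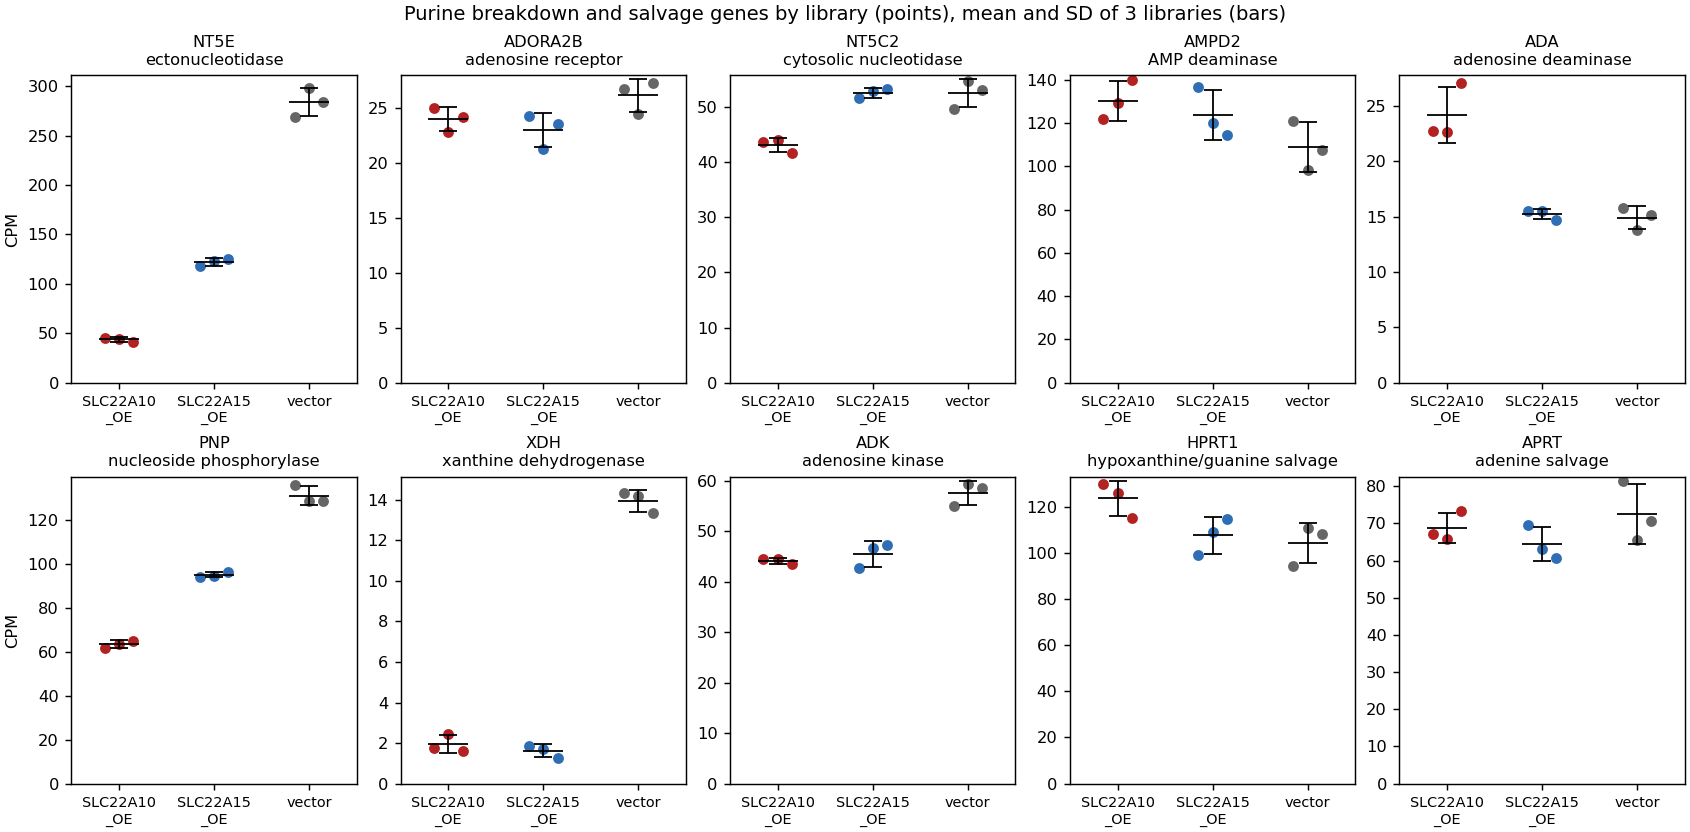
Expression of the 10 purine genes in CPM (vertical axis from 0, own scale per panel) in each library (points) of SLC22A10_OE, SLC22A15_OE and vector, with the mean and SD of 3 libraries (bars). NT5E and PNP form 3 separate levels with SLC22A10_OE lowest, XDH is between 1.27 and 2.46 CPM in both overexpressing lines against 13.3 to 14.3 CPM in vector, and ADA stands out upward in SLC22A10_OE.

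ADORA2B (chr17:15944917-15975746, plus strand), the low-affinity adenosine receptor that acts through cyclic AMP, was at 25.0, 22.8 and 24.2 CPM in the SLC22A10_OE libraries, 24.2, 21.3 and 23.5 CPM in the SLC22A15_OE libraries and 26.7, 24.5 and 27.3 CPM in the vector libraries. The SLC22A10_OE libraries overlapped those of vector, and the SLC22A15_OE libraries lay just below them, with differences from vector of -0.12 and -0.18 on the log2(CPM + 1) scale and a standard error of 0.07. A processed pseudogene of ADORA2B is annotated, and reads that fit both could have been assigned to either. The transcript of the receptor stayed within a narrow range in the same libraries in which NT5E spanned 41.0 to 298 CPM.

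NT5C2 (chr10:103088017-103193306, minus strand), a nucleotidase of the cytosol that prefers IMP and GMP, was at 43.8, 44.0 and 41.8 CPM in the SLC22A10_OE libraries, 51.6, 52.9 and 53.3 CPM in the SLC22A15_OE libraries and 49.8, 54.8 and 53.2 CPM in the vector libraries. SLC22A10_OE was below both of the other groups without overlap, with a difference of -0.28 from vector on the log2(CPM + 1) scale and 0.28 between SLC22A15_OE and SLC22A10_OE (standard error 0.06), and SLC22A15_OE overlapped vector. AMPD2 (chr1:109616104-109632051, plus strand), which deaminates AMP to IMP, was at 122, 129 and 140.0 CPM in the SLC22A10_OE libraries, 137, 120.0 and 115 CPM in the SLC22A15_OE libraries and 121, 98.4 and 107 CPM in the vector libraries. SLC22A10_OE lay above vector by 0.26 (standard error 0.08) with only a small gap, since vector library 1 came within 1 CPM of the lowest SLC22A10_OE library. The SLC22A15_OE libraries overlapped those of vector, and their difference was 0.18. NT5C2 overlaps CNNM2, and AMPD2 overlaps GNAI3 and GNAT2, in the annotation.

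ADA (chr20:44619522-44652233, minus strand), adenosine deaminase, was at 22.7, 22.7 and 27.1 CPM in the SLC22A10_OE libraries, 15.5, 15.5 and 14.7 CPM in the SLC22A15_OE libraries and 15.8, 13.8 and 15.1 CPM in the vector libraries. All SLC22A10_OE libraries were above all others, and SLC22A15_OE overlapped vector. The means were 24.2 ± 2.54, 15.2 ± 0.459 and 14.9 ± 1.02 CPM for SLC22A10_OE, SLC22A15_OE and vector (SD, n = 3 each). SLC22A10_OE had 1.62 times the vector level, a difference of 0.66 on the log2(CPM + 1) scale (standard error 0.08), and the difference of SLC22A15_OE from vector was 0.03. In the annotation ADA overlaps PKIG, which is on the other strand. Reads in such overlaps may belong to either gene, since no source used here tells whether counting used strand.

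PNP (chr14:20468954-20477094, plus strand), the phosphorylase that splits inosine and guanosine into base and sugar phosphate, was at 61.7, 63.8 and 65.1 CPM in the SLC22A10_OE libraries, 94.3, 94.5 and 96.4 CPM in the SLC22A15_OE libraries and 136, 129 and 128 CPM in the vector libraries. The groups were as fully apart as for NT5E and stood in the same order. The means were 63.5 ± 1.72, 95.1 ± 1.19 and 131 ± 4.29 CPM for SLC22A10_OE, SLC22A15_OE and vector (SD, n = 3 each), which was 2.06-fold lower in SLC22A10_OE and 1.38-fold lower in SLC22A15_OE than in vector. The log2(CPM + 1) differences from vector were -1.03 and -0.46, and SLC22A15_OE exceeded SLC22A10_OE by 0.57 (standard error 0.05).

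XDH (chr2:31334321-31414715, minus strand) encodes xanthine dehydrogenase, a molybdenum enzyme that oxidises hypoxanthine to xanthine and xanthine to urate. It was at 1.76, 2.46 and 1.62 CPM in the SLC22A10_OE libraries, 1.87, 1.72 and 1.27 CPM in the SLC22A15_OE libraries and 14.3, 14.2 and 13.3 CPM in the vector libraries. The overexpressing lines overlapped each other, and both lay far below vector. The means were 1.95 ± 0.452, 1.62 ± 0.315 and 13.9 ± 0.538 CPM for SLC22A10_OE, SLC22A15_OE and vector (SD, n = 3 each), 7.17-fold lower in SLC22A10_OE and 8.62-fold lower in SLC22A15_OE than in vector. Because XDH was low, the pseudocount of 1 CPM shrank its differences on the log2(CPM + 1) scale, which were -2.35 in SLC22A10_OE and -2.52 in SLC22A15_OE (standard error 0.13). The authors' deposited tables list log2 fold changes of -2.83 and -3.12. XDH rested on 45 to 86 reads per SLC22A10_OE library and 55 to 66 reads per SLC22A15_OE library, against 466 to 504 reads per vector library. The coefficient of variation between libraries was 23.2% in SLC22A10_OE, where counting alone gives 12.3%, and 19.4% in SLC22A15_OE, where counting alone gives 12.9%. On the log2(CPM + 1) scale, where the pseudocount bears on the order of low genes, XDH had among the 14554 genes tested the lowest difference from vector in SLC22A15_OE and the 12th lowest in SLC22A10_OE, and the lines differed from each other by -0.17 (SLC22A15_OE minus SLC22A10_OE).

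**Figure D2:**
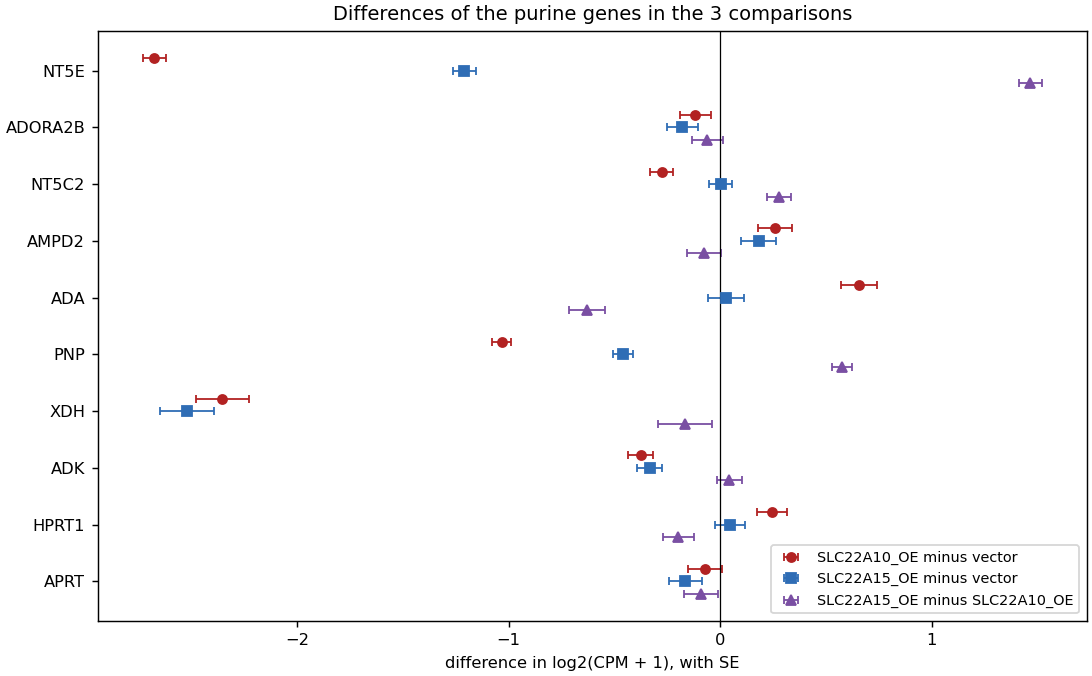
Differences of the 10 purine genes in log2(CPM + 1) (horizontal axis) for SLC22A10_OE minus vector, SLC22A15_OE minus vector and SLC22A15_OE minus SLC22A10_OE, with bars of 1 standard error from the limma fit of all 9 libraries. NT5E, PNP and XDH lie left of 0 in both comparisons with vector, NT5E and PNP with the larger difference in SLC22A10_OE and XDH at -2.35 and -2.52.

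Among the salvage enzymes, ADK (chr10:74151185-74709303, plus strand), which phosphorylates adenosine to AMP, was at 44.4, 44.5 and 43.5 CPM in the SLC22A10_OE libraries, 42.6, 46.7 and 47.3 CPM in the SLC22A15_OE libraries and 54.9, 59.3 and 58.6 CPM in the vector libraries. Both overexpressing lines were below vector without overlap, by -0.38 and -0.33 on the log2(CPM + 1) scale (standard error 0.06), and they overlapped each other. HPRT1 (chrX:134460153-134520513, plus strand), which salvages hypoxanthine and guanine, was at 129.8, 126 and 115 CPM in the SLC22A10_OE libraries, 99.1, 109 and 115 CPM in the SLC22A15_OE libraries and 94.3, 111 and 108 CPM in the vector libraries. SLC22A10_OE was above vector by 0.24 (standard error 0.07), with its lowest library at 115 CPM close to the highest of vector at 111 CPM, and SLC22A15_OE overlapped vector. HPRT1 has 3 annotated processed pseudogenes that could take or lend reads. APRT (chr16:88809339-88811944, minus strand), which salvages adenine, was at 67.1, 65.7 and 73.4 CPM in the SLC22A10_OE libraries, 69.6, 63.2 and 60.7 CPM in the SLC22A15_OE libraries and 81.5, 65.5 and 70.6 CPM in the vector libraries. All 3 groups overlapped for APRT.

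Counted together, 8 of the 10 genes had SLC22A10_OE and vector libraries that did not overlap, 3 above vector (ADA, HPRT1 and AMPD2) and 5 below (NT5E, XDH, PNP, ADK and NT5C2). Over all 14554 genes tested, 69.2% did not overlap in this comparison, 35.4% above and 33.8% below. For SLC22A15_OE against vector, 5 genes did not overlap, all of them below vector (NT5E, XDH, PNP, ADK and ADORA2B), where the share over all genes was 34.7%, 18.1% above and 16.6% below. Between the lines, SLC22A15_OE was above SLC22A10_OE for NT5E, PNP and NT5C2 and below it for ADA and HPRT1, again 5 of 10, where the share over all genes was 67.4%, 33.3% above and 34.2% below. For HPRT1 that gap was small, with the highest SLC22A15_OE library at 114.9 CPM and the lowest SLC22A10_OE library at 115.2 CPM. The genes were chosen with these contrasts known, so nothing is read from these counts. The median difference of the 10 genes in log2(CPM + 1) was -0.20 for SLC22A10_OE minus vector, -0.17 for SLC22A15_OE minus vector and -0.07 for SLC22A15_OE minus SLC22A10_OE, and the median over all genes tested was 0.005, 0.006 and -0.002 in these comparisons. All 10 genes reached 1 CPM in every library. Both comparisons with vector use the same 3 vector libraries.

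Divided by the length of their annotated exons, the 10 genes had a different order of levels in each group. In SLC22A10_OE, HPRT1 had the highest level at 87.9 CPM per kb, NT5E was the 9th at 10.3 and XDH the lowest at 0.342. No neighbours in that order overlapped in SLC22A10_OE. In SLC22A15_OE, HPRT1 led at 76.6 CPM per kb, NT5E was the 4th at 28.8 and XDH the lowest at 0.285. APRT at 64.5 and PNP at 63.0, and NT5E and AMPD2 at 26.4, were neighbours whose SLC22A15_OE libraries overlapped. In vector, PNP led at 86.9 CPM per kb, followed by HPRT1 at 74.1, APRT at 72.6 and NT5E at 66.9, where PNP was clear of HPRT1 and each of the other 3 overlapped its neighbour among them. ADK at 23.6 and AMPD2 at 23.3 overlapped in vector, as did ADORA2B at 15.07 and NT5C2 at 15.04, and ADA at 9.69 and XDH at 2.45 CPM per kb were the lowest. NT5E thus stood beside the salvage enzymes HPRT1 and APRT in vector, and below every other gene of the 10 but XDH in SLC22A10_OE.

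The 3 libraries with little mitochondrial ribosomal RNA were at the edge of their group for several of these genes. They were the lowest library of all 3 groups for NT5E, ADK, HPRT1 and NT5C2, and the highest of all 3 for APRT and AMPD2, and the part of this difference in the values above was not tested. Without them, leaving 2 libraries per group, the differences from vector of NT5E were -2.67 in SLC22A10_OE and -1.22 in SLC22A15_OE, and those of XDH were -2.26 and -2.57. The counts of genes whose groups did not overlap were then 8 for SLC22A10_OE against vector, 7 for SLC22A15_OE against vector and 9 between the lines. The shares over all genes were 84.1%, 65.3% and 83.2% with those 6 libraries. In SLC22A15_OE, AMPD2 then lay above vector, at 120.0 and 115 CPM against 98.4 and 107 CPM, and APRT below it, at 63.2 and 60.7 CPM against 65.5 and 70.6 CPM.

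The low values of NT5E, XDH and PNP were set beside those of their neighbours on the chromosome. Over the 34 tested genes within 5 Mb of NT5E, the median difference from vector in log2(CPM + 1) was -0.04 in SLC22A10_OE and -0.05 in SLC22A15_OE. Over the 61 around XDH it was -0.01 and 0.01, and over the 89 around PNP it was 0.16 and 0.00. The differences of the 3 genes themselves, given above, were larger in size, and a part of copy number or of the region in them was not tested.

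Some genes had a pattern over the 9 libraries close to that of NT5E or XDH, measured as the root mean square difference of log2(CPM + 1) minus the vector mean over the 9 libraries, among 11026 genes with a group mean of at least 5 CPM. The nearest to NT5E were NOG, a secreted antagonist of bone morphogenetic proteins, at 0.174, CAV1, the coat protein of caveolae, at 0.195, and BNC1, a zinc finger protein of stratified epithelia, at 0.196. NOG averaged 3.96 ± 0.748 CPM in SLC22A10_OE, 14.1 ± 1.19 CPM in SLC22A15_OE and 31.4 ± 3.97 CPM in vector. CAV1 averaged 14.5 ± 1.10 CPM in SLC22A10_OE, 34.2 ± 1.09 CPM in SLC22A15_OE and 77.9 ± 1.27 CPM in vector. BNC1 averaged 7.22 ± 1.09 CPM in SLC22A10_OE, 17.0 ± 0.742 CPM in SLC22A15_OE and 41.8 ± 2.15 CPM in vector (SD, n = 3 each). Each stood at 3 separate levels in the same order as NT5E, a likeness for which they were chosen from these same libraries. The nearest to XDH were SH3TC2-DT, a divergent transcript of SH3TC2, at 0.269, SH3TC2, a gene of peripheral nerve myelination, at 0.291, and HLX, a homeobox factor, at 0.302. SH3TC2 averaged 32.3 ± 1.77 CPM in SLC22A10_OE, 24.7 ± 0.224 CPM in SLC22A15_OE and 129 ± 1.31 CPM in vector. HLX averaged 2.70 ± 0.513 CPM in SLC22A10_OE, 2.42 ± 0.342 CPM in SLC22A15_OE and 14.7 ± 1.19 CPM in vector. SH3TC2-DT averaged 0.452 ± 0.0786 CPM in SLC22A10_OE, 0.678 ± 0.158 CPM in SLC22A15_OE and 6.65 ± 0.618 CPM in vector. Reads near the starts of SH3TC2 and SH3TC2-DT may belong to either. These 3 genes were, like XDH, low in both overexpressing lines, which follows from how they were chosen. SH3TC2 stood apart between the lines, at 24.5 to 24.9 CPM in SLC22A15_OE and 30.3 to 33.7 CPM in SLC22A10_OE, where XDH and HLX overlapped. SH3TC2-DT was under 1 CPM in every library of both lines, at 0.546 to 0.852 CPM in SLC22A15_OE and 0.388 to 0.540 CPM in SLC22A10_OE. It passed the filters through vector alone, so its order between the lines is not read. HLX, too, had a mean of at least 5 CPM in vector alone.

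**Figure D3:**
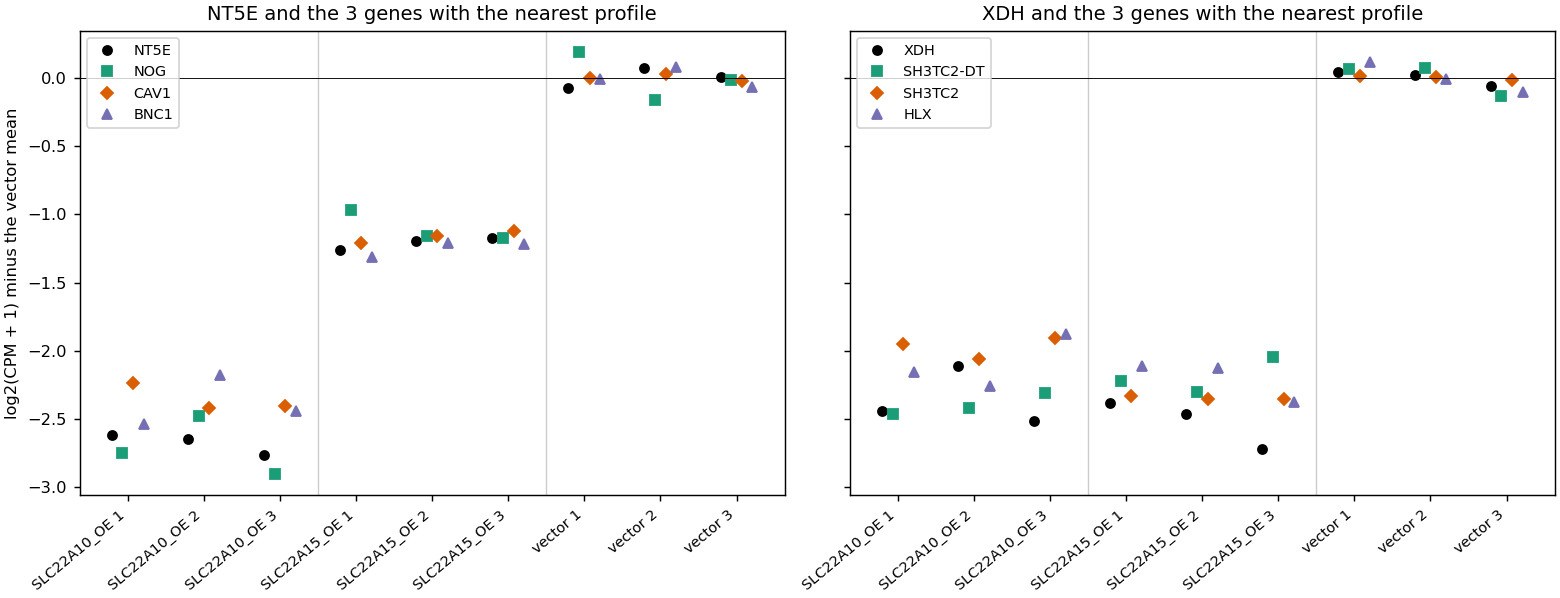
Level of NT5E and of XDH (black) and of the 3 genes nearest to each in pattern, as log2(CPM + 1) minus the mean of the vector libraries (vertical axis), in each of the 9 libraries (horizontal axis). NT5E, NOG, CAV1 and BNC1 step down at 2 levels, with means of -2.68 for SLC22A10_OE and -1.21 for SLC22A15_OE in NT5E, while XDH, SH3TC2-DT, SH3TC2 and HLX lie below vector in every library of both lines, XDH with means of -2.35 for SLC22A10_OE and -2.52 for SLC22A15_OE.

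The other genes of purine handling, outside the 10, were taken by function from 8 lists with 131 symbols. The lists also hold related genes, such as TK1, TK2, DCTD and NT5C3A of pyrimidine handling and the sulfite oxidase SUOX. All are counted as other purine genes here. Of these, 97 were in the table and 84 reached 1 CPM in at least 3 libraries and were tested with limma, with Benjamini-Hochberg adjustment over all 14554 genes. In SLC22A10_OE against vector, 64 of the 84 passed an adjusted p of 0.05, 31 higher and 33 lower (76.2%), where 67.2% of all genes passed, 34.7% higher and 32.5% lower. In SLC22A15_OE against vector, 24 passed, 15 higher and 9 lower (28.6%), where 20.4% of all genes passed, 10.8% higher and 9.58% lower. Without SLC22A15_OE library 2, 14 passed in that comparison, 4 of them lower. Fewer of all genes passed there too without that library. Leaving out each of the 9 libraries in turn, 2050 to 3494 of all genes passed in that comparison, against 2966 with all 9. Those called lower numbered 918 to 1575, against 1394. Same-numbered SLC22A15_OE and vector libraries deviated together, though no label pairs them. In a fit of these 6 libraries alone with the number as block, chosen after seeing the data, 39 passed, 19 higher and 20 lower. Of all genes, 5882 passed in that fit, 2952 higher and 2930 lower. Between the lines, 47 passed, 24 higher in SLC22A15_OE and 23 lower (56.0%), where 62.9% of all genes passed, 30.8% higher and 32.1% lower. Centring each library on its median shifted all differences by -0.12, -0.03 and 0.09 on the log2 scale for SLC22A10_OE minus vector, SLC22A15_OE minus vector and SLC22A15_OE minus SLC22A10_OE. The splits were then 22 higher and 39 lower, 11 higher and 13 lower, and 37 higher and 19 lower. Over all genes, the split for SLC22A10_OE against vector was 5047 higher and 4728 lower, against 3875 and 6233 with centring. That for SLC22A15_OE against vector was 1572 higher and 1394 lower, against 1351 and 1683 with centring, and that between the lines was 4484 higher and 4674 lower, against 5798 and 3713. The median difference of the 84 genes was -0.003, -0.013 and 0.008 in log2(CPM + 1) in the 3 comparisons.

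Of the genes listed for nucleotide breakdown outside the cell or in the secretory pathway, 5 were tested, among them the kinase AK1. The threshold was passed by 2 of 5 in SLC22A10_OE, 1 higher and 1 lower, and by 1 of 5 in SLC22A15_OE. The shares over all genes were 67.2% and 20.4%. ENTPD1, or CD39, which cuts ATP and ADP to AMP, averaged 18.6 ± 0.631 CPM in SLC22A10_OE, 27.6 ± 0.862 CPM in SLC22A15_OE and 29.7 ± 0.306 CPM in vector (SD, n = 3 each). It fell by 0.65 on the log2 scale in SLC22A10_OE (limma, Benjamini-Hochberg adjusted p = 9.93e-07), and its difference in SLC22A15_OE was -0.10 (adjusted p = 0.265). CANT1, a calcium-activated nucleotidase of the secretory pathway, was higher by 0.15 in SLC22A10_OE (limma adjusted p = 0.0437) and by 0.19 in SLC22A15_OE (adjusted p = 0.0446).

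Of the purinergic receptors and release channels, 10 of 12 tested genes passed in SLC22A10_OE, 4 higher and 6 lower, and 4 of 12 in SLC22A15_OE, 3 higher and 1 lower. Over all genes, 67.2% passed in SLC22A10_OE and 20.4% in SLC22A15_OE. P2RX6, an ATP-gated channel subunit, averaged 14.3 ± 1.85 CPM in SLC22A10_OE, 7.38 ± 1.01 CPM in SLC22A15_OE and 2.83 ± 0.601 CPM in vector, and rose by 2.01 (limma, Benjamini-Hochberg adjusted p = 4.69e-08) and 1.14 (adjusted p = 5.51e-05) in these lines. P2RY1, a receptor for ADP, moved the other way, with 1.52 ± 0.142 CPM in SLC22A10_OE, 2.82 ± 0.126 CPM in SLC22A15_OE and 5.87 ± 0.620 CPM in vector (limma differences of -1.44 and -0.84, adjusted p = 7.79e-08 and 6.57e-05). ADORA1, an adenosine receptor that lowers cyclic AMP, averaged 24.7 ± 1.69 CPM in SLC22A10_OE, 32.5 ± 4.05 CPM in SLC22A15_OE and 20.1 ± 1.74 CPM in vector. It rose by 0.29 in SLC22A10_OE (limma adjusted p = 0.0158) and by 0.66 in SLC22A15_OE (adjusted p = 0.000201). ADORA1 was highest in SLC22A15_OE, which exceeded SLC22A10_OE by 0.38 (limma adjusted p = 0.00339). PANX1, a channel that releases ATP, fell by 0.56 in SLC22A10_OE (limma adjusted p = 3.06e-06), with 23.2 ± 1.23 CPM against 34.7 ± 0.546 CPM in vector. P2RX4, another ATP-gated channel, rose there by 0.63 (limma adjusted p = 3.58e-06), with 20.7 ± 0.689 CPM against 13 ± 0.468 CPM in vector. P2RX2 was low, and it fell by 0.99 in SLC22A10_OE (limma adjusted p = 1.16e-05) and was higher by 0.37 in SLC22A15_OE (adjusted p = 0.047).

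All 4 tested nucleoside transporters passed in SLC22A10_OE, 3 higher and 1 lower, and 1 of 4 in SLC22A15_OE, where 67.2% and 20.4% of all genes passed. SLC29A1 (ENT1), the main equilibrative carrier of adenosine, averaged 66.9 ± 4.75 CPM in SLC22A10_OE, 101 ± 6.29 CPM in SLC22A15_OE and 97.1 ± 8.74 CPM in vector, and fell by 0.53 in SLC22A10_OE (limma, Benjamini-Hochberg adjusted p = 3.02e-05). SLC29A4, a carrier of monoamines and adenosine, was at 54.9 ± 6.49 CPM in SLC22A10_OE, 17.3 ± 2.06 CPM in SLC22A15_OE and 15.7 ± 2.77 CPM in vector, and rose in SLC22A10_OE by 1.75 (limma adjusted p = 4.97e-08). In SLC22A15_OE its difference was 0.14 (adjusted p = 0.479), and the difference SLC22A15_OE minus SLC22A10_OE was -1.61 (limma adjusted p = 1.83e-07). SLC29A2 (ENT2) rose in both lines, by 0.64 and 0.39 (limma adjusted p = 4.37e-05 and 0.00863), with 18.5 ± 1.67 CPM in SLC22A10_OE, 15.4 ± 1.80 CPM in SLC22A15_OE and 11.5 ± 0.193 CPM in vector. The carriers that take up adenosine thus did not move one way.

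Of the intracellular nucleotidases, 11 of 14 passed in SLC22A10_OE, 6 higher and 5 lower, and 3 of 14 in SLC22A15_OE, 1 higher and 2 lower. Beside these stand 67.2% and 20.4% of all genes. NT5C3A, which prefers pyrimidine nucleotides, fell by 0.79 in SLC22A10_OE (limma, Benjamini-Hochberg adjusted p = 1.64e-06), with 15.7 ± 1.36 CPM against 27.8 ± 1.27 CPM in vector. NT5DC2 and ENTPD7 differed there by -0.69 and -0.67 (limma adjusted p = 5.47e-06 and 6.49e-06), and NT5M, a mitochondrial nucleotidase, rose by 0.64 (adjusted p = 0.00098). ENTPD4, of the Golgi, rose in both lines, with 73.2 ± 2.74 CPM in SLC22A10_OE, 78.6 ± 2.98 CPM in SLC22A15_OE and 52.6 ± 1.85 CPM in vector (limma differences of 0.47 and 0.57, adjusted p = 5.61e-06 and 6.28e-06). ENTPD6 was lower in both lines, at 81.7 ± 4.46 CPM in SLC22A10_OE, 82.6 ± 7.41 CPM in SLC22A15_OE and 104 ± 11.3 CPM in vector (limma differences of -0.34 and -0.33, adjusted p = 0.00216 and 0.0108). NT5DC2 was lower in SLC22A15_OE by -0.25 (limma adjusted p = 0.0418). Of 3 deaminases tested, 2 were lower in both lines, where 32.5% of all genes were called lower in SLC22A10_OE and 9.58% in SLC22A15_OE. AMPD3, a paralog of AMPD2, averaged 12.2 ± 0.517 CPM in SLC22A10_OE, 11.7 ± 0.469 CPM in SLC22A15_OE and 15.7 ± 0.619 CPM in vector (limma differences of -0.34 and -0.40, adjusted p = 0.00136 and 0.00192). DCTD, which deaminates dCMP, differed by -0.26 and -0.20 (limma adjusted p = 0.00152 and 0.0286).

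Of the salvage kinases, transferases and sugar phosphate enzymes, 11 of 15 passed in SLC22A10_OE, 4 higher and 7 lower, and 6 of 15 in SLC22A15_OE, 4 higher and 2 lower. The shares over all genes were 67.2% and 20.4%. PGM1, a phosphoglucomutase that also interconverts pentose phosphates, had the highest rise, with 121 ± 3.02 CPM in SLC22A10_OE, 93.9 ± 0.774 CPM in SLC22A15_OE and 72.5 ± 1.66 CPM in vector (limma differences of 0.73 and 0.37, Benjamini-Hochberg adjusted p = 1.75e-08 and 6.24e-05). TK2, the mitochondrial thymidine kinase, rose in SLC22A10_OE by 0.72 (limma adjusted p = 3.01e-07), and TK1, the cytosolic one, fell by 0.39 (adjusted p = 0.00136). TK2 was also higher in SLC22A15_OE, by 0.18 (limma adjusted p = 0.0476), a call that was lost in 13 of the alternatives. AHCYL2 rose in both lines, by 0.45 and 0.31 (limma adjusted p = 4.19e-05 and 0.00371). AHCYL1 fell by 0.21 in SLC22A15_OE (limma adjusted p = 0.00365), with 248 ± 1.82 CPM in SLC22A10_OE, 214 ± 4.58 CPM in SLC22A15_OE and 249 ± 11.5 CPM in vector. PRTFDC1, a relative of HPRT1 with little transferase activity, was higher by 0.37 in SLC22A10_OE (limma adjusted p = 0.00336) and by 0.28 in SLC22A15_OE (adjusted p = 0.0492).

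Enzymes that interconvert purine nucleotides passed in 18 of 24 cases in SLC22A10_OE, 12 higher and 6 lower, and in 6 of 24 in SLC22A15_OE, 4 higher and 2 lower. Over all genes the shares were 67.2% and 20.4%. GUK1, guanylate kinase, was at 115 ± 8.19 CPM in SLC22A10_OE, 88.4 ± 9.67 CPM in SLC22A15_OE and 66.1 ± 7.20 CPM in vector (limma differences of 0.79 and 0.41, Benjamini-Hochberg adjusted p = 4.14e-06 and 0.00425). AK4, a mitochondrial adenylate kinase, fell in both lines and further in SLC22A15_OE, with 111 ± 5.09 CPM in SLC22A10_OE, 85.7 ± 1.84 CPM in SLC22A15_OE and 129.5 ± 2.76 CPM in vector (limma differences of -0.22 and -0.59, adjusted p = 0.00148 and 1.93e-06). The AK4 difference between the lines was -0.37 (limma adjusted p = 2.15e-05). AK5, a cytosolic adenylate kinase, rose by 0.41 and 0.54 (limma adjusted p = 0.000208 and 0.000119). IMPDH1, which makes XMP from IMP, rose in SLC22A15_OE by 0.45 (limma adjusted p = 0.00105), with 111 ± 10.3 CPM against 81.2 ± 7.35 CPM in vector. ADSSL1, an adenylosuccinate synthase of muscle, and the nucleoside diphosphate kinase genes NME3 and NME4 rose in SLC22A10_OE by 0.95, 0.73 and 0.64 (limma adjusted p = 2.13e-06, 0.000443 and 5.55e-06). NME4 averaged 138 ± 9.49 CPM there against 87.9 ± 6.15 CPM in vector.

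The genes closest in function to XDH, those of the molybdenum cofactor, other molybdenum enzymes and urate transport, passed in 6 of 7 cases in SLC22A10_OE, 1 higher and 5 lower, and in 1 of 7 in SLC22A15_OE. Beside these stand 67.2% and 20.4% of all genes. SUOX, sulfite oxidase, which uses the same cofactor as XDH, was at 22.3 ± 1.76 CPM in SLC22A10_OE, 15.8 ± 1.07 CPM in SLC22A15_OE and 11.5 ± 2.06 CPM in vector (limma differences of 0.91 and 0.43, Benjamini-Hochberg adjusted p = 1.18e-05 and 0.0148). The direction of SUOX was thus opposite to that of XDH in both lines. MOCS2, MOCS1 and GPHN, which build the cofactor, fell in SLC22A10_OE, with differences of -0.36, -0.20 and -0.19 (limma adjusted p = 0.00297, 0.0275 and 0.0144). MOCS3, which also serves cofactor synthesis, had a difference of -0.10 there (limma adjusted p = 0.269). MOCOS, a sulfurase that activates the cofactor, was under the filter on low values, at 0.727 ± 0.0447 CPM in SLC22A10_OE and 0.182 ± 0.113 CPM in vector. In SLC22A15_OE the differences of MOCS2, MOCS1 and GPHN were 0.00, -0.20 and -0.10, with limma adjusted p = 0.993, 0.0629 and 0.296. PDZK1 and ABCG2, listed for urate transport, had means under 5 CPM in every group. Their differences were -0.88 and -0.75 in SLC22A10_OE (limma adjusted p = 0.000111 and 0.000119). In SLC22A15_OE they were -0.02 and -0.24 (limma adjusted p = 0.942 and 0.197). MOCS3, MOCOS, PDZK1 and ABCG2 were named after their values were seen. AOX1, the aldehyde oxidase related to XDH, was in the table but under the filter on low values.

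**Figure D4:**
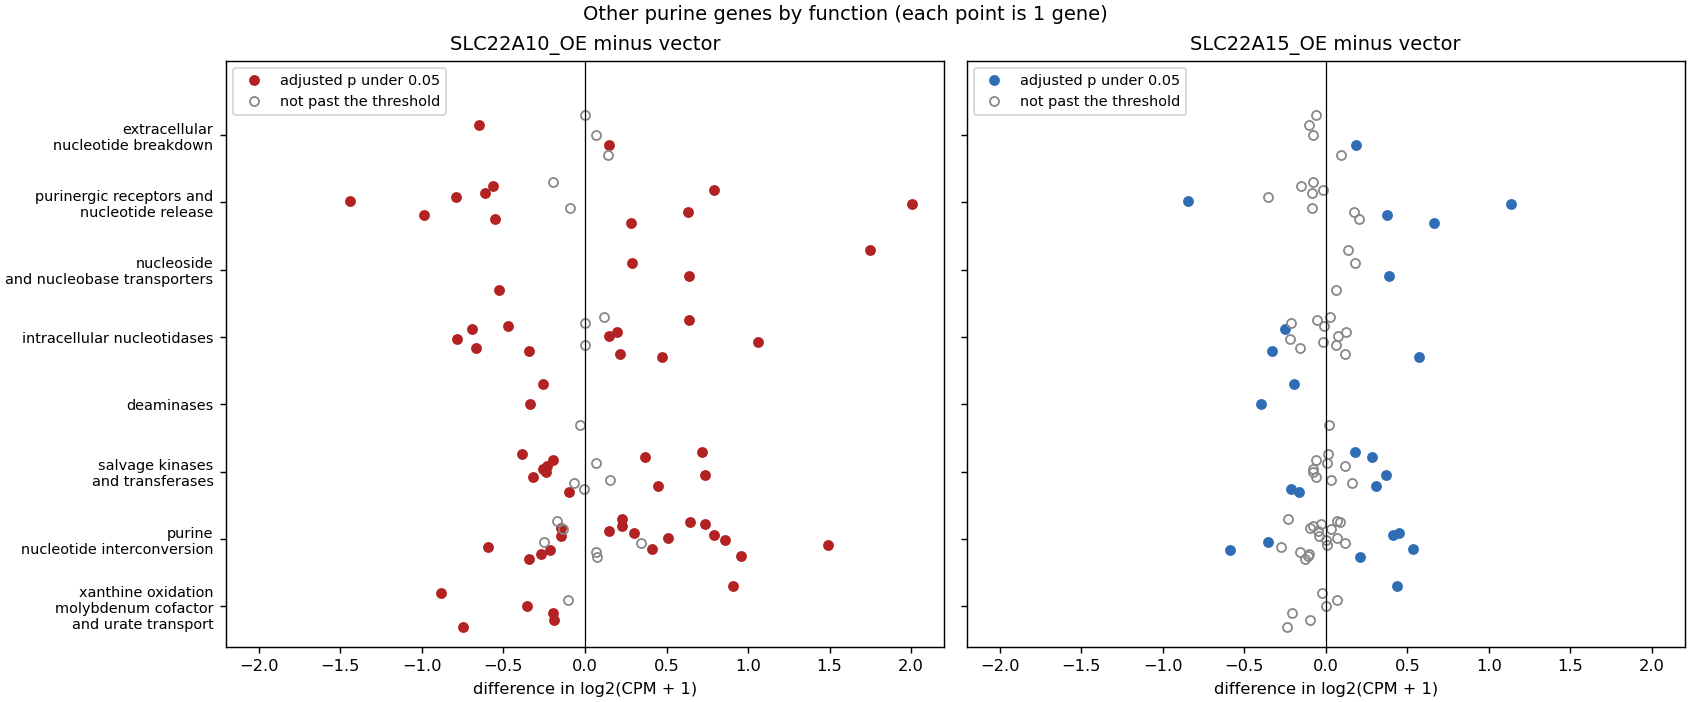
Difference from vector in log2(CPM + 1) (horizontal axis) of the 84 other purine genes, 1 point per gene, by function (vertical axis), for SLC22A10_OE (left) and SLC22A15_OE (right). Filled points passed a limma adjusted p of 0.05, which were 64 genes in SLC22A10_OE and 24 in SLC22A15_OE, and in most groups genes lie on both sides of 0.

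Some of these calls were lost when a library was left out. CANT1 lost its call in SLC22A10_OE without vector library 2 or 3, SLC22A10_OE library 2 or 3 or SLC22A15_OE library 2, and its call in SLC22A15_OE without vector library 2 or 3, SLC22A15_OE library 1 or 2 or SLC22A10_OE library 1 or 2. Over all alternatives in which it lost them, its adjusted p reached 0.672 and 0.159 (limma, edgeR or DESeq2 with Benjamini-Hochberg adjustment). In SLC22A15_OE, P2RX2 lost its call without any single library but vector library 1 and SLC22A10_OE library 2, and PRTFDC1 without any but SLC22A10_OE library 3. Their adjusted p reached 0.196 and 0.123 over the alternatives run (limma or edgeR). With the column number as a block in the fit of all 9 libraries, the adjusted p in SLC22A15_OE was 0.0530 for CANT1, 0.0625 for P2RX2 and 0.0691 for PRTFDC1 (limma). In the blocked fit of the SLC22A15_OE and vector libraries alone it was 7.34e-06, 0.00434 and 0.00482 (limma). That block was chosen from the deviations of these same libraries and no label states it, so it restores none of these calls. NT5DC2 lost its SLC22A15_OE call without vector library 1 or 3, SLC22A15_OE library 2 or 3 or SLC22A10_OE library 2 (limma adjusted p of 0.0654 to 0.123), and DCTD without vector library 1 or 3 or any SLC22A15_OE library (0.0618 to 0.0848). ENTPD6 lost it without SLC22A15_OE library 2 (limma adjusted p = 0.0560) and SUOX without vector library 2 (adjusted p = 0.0517). In SLC22A10_OE, ADORA1 lost it without vector library 2 or 3 or SLC22A10_OE library 3 and on median centring (limma adjusted p of 0.0521 to 0.123). GPHN lost it there without SLC22A10_OE library 2 (limma adjusted p = 0.0641), and MOCS1 without that library, without vector library 1 or without the 3 libraries low in mitochondrial ribosomal RNA (0.0706 to 0.0975).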

How the data were processed

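RNA-seq of RNA depleted of ribosomal RNA from PANC-1 lines was used, in 9 libraries with 3 per group. The authors deposited CPM per gene and library for 16750 human Entrez genes, and a table per comparison with vector that holds, per the file headers, log2 fold changes, mean log2 CPM and p-values. The submitters' processing notes name edgeR, hg38 and mm9 without a role. The aligner, the counting program and whether it used strand remain not given in the sources used here. Whole reads were recovered from the deposited CPM values, 100% of them within 0.1 read of a whole number. Columns carry the group and a number from 1 to 3, and libraries are named by these. The sample titles carry A1, A2 and B1 in each group, with no stated meaning, and the columns were not matched to them. Whether the title letters bear on the low mitochondrial ribosomal RNA or on the numbers was therefore not tested.

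Differences were tested on log2(CPM + 1) with the limma package (3.58.1, under R 4.3.3), its variances following a mean trend, all 9 libraries in 1 fit with 6 residual degrees of freedom and 3 contrasts, on genes at 1 CPM or more in at least 3 libraries. P-values were two-sided with Benjamini-Hochberg adjustment and a threshold of 0.05. Fold changes on this scale understate those of low genes. Alternatives were pseudocounts of 0.25 and 0.5 CPM, no filter or one at 5 CPM, median centring, a term for or removal of the libraries low in mitochondrial ribosomal RNA, a fit of the groups compared alone, a replicate block, each library left out, and edgeR 4.0.16 and DESeq2 1.42.0 on the recovered reads. Deviations from the group means of same-numbered SLC22A15_OE and vector libraries correlated at 0.57, 0.31 and 0.19 across genes for the numbers 1, 2 and 3. No label states that the numbers pair libraries, and a blocked fit of the SLC22A15_OE and vector libraries alone was added after seeing the data. Number 1 is the library low in mitochondrial ribosomal RNA in both groups, so pairing and that difference cannot be told apart here.

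The 10 genes, the gene lists and the rules were chosen with earlier results of these data known. Named beside the 10 were, per list and comparison with vector, up to 4 genes past the threshold with the largest difference and a mean of at least 5 CPM in the higher group, and the 3 genes nearest in pattern to NT5E and XDH. Gene positions and exon lengths came from GENCODE release 29 on GRCh38 and promoters from RefSeq on GRCh38.p14. Protein sequences were not used here. Listed genes absent from the table, such as MTAP, GDA and ADA2, were not analysed here.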

Additional observations from a re-analysis of the deposited data

How the results depend on the processing

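Over the 3 comparisons, the other purine genes named by rule had 2298 alternative values, of which 2190 kept their side of the threshold, 81 lost a call, 27 gained one and 0 called values reversed. Those of the 10 genes beyond NT5E and XDH against vector moved by more than 1 SD in 12 of 554 cases, all on median centring, with 0 reversals of separated groups. For SLC22A15_OE against vector, 2966 genes passed, 1572 higher and 1394 lower. With a term for low mitochondrial ribosomal RNA 5608 passed, 2868 higher and 2740 lower, and 37 other purine genes, 18 of them lower. Leaving those 3 libraries out gave 4472 genes, 2134 lower. Centring gave 37 other purine genes and 5798 of all genes higher between the lines, and -2.80 for NT5E in SLC22A10_OE. With pseudocounts of 0.25 and 0.5 CPM, the XDH difference was -2.71 and -2.58 in SLC22A10_OE and -2.94 and -2.78 in SLC22A15_OE. On recovered reads it was -2.83 (edgeR, deposited scaling), -2.84 (edgeR, TMM) and -2.84 (DESeq2) in SLC22A10_OE, and -3.12, -3.13 and -3.13 in SLC22A15_OE. EdgeR on these reads called 9748, 2969 and 9134 genes in SLC22A10_OE against vector, SLC22A15_OE against vector and between the lines, against 9775, 2966 and 9158 with limma.

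Leaving out 1 library at a time, the genes called lower in SLC22A15_OE numbered 918 to 1575, lowest without vector library 3. The other purine genes called there numbered 14 to 24, 4 to 10 of them lower, and all genes called there numbered 2050 to 3494. NT5E lay at -2.71 to -2.63 in SLC22A10_OE and -1.25 to -1.17 in SLC22A15_OE, and XDH at -2.48 to -2.27 and -2.59 to -2.42. With the column number as a replicate block, 64, 20 and 48 other purine genes passed in SLC22A10_OE against vector, SLC22A15_OE against vector and between the lines, against 64, 24 and 47 without it. All genes passing numbered 9688, 2781 and 9111 with the block, against 9775, 2966 and 9158 without it. In the blocked fit of SLC22A15_OE and vector libraries alone, chosen after seeing the data, 39 passed, 20 lower, and 5882 of all genes, 2952 higher and 2930 lower, where no named gene lost its call. Deviations of same-numbered libraries correlated across genes at -0.41 to 0.57 over all 3 comparisons, and no label states that the numbers pair samples. XDH, at 45 to 86 reads per library in the overexpressing lines, is the gene of the 10 that depth limits most.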
